A study of Mus musculus with 6 samples.

Results

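The genes described here are 10 genes of bone morphogenetic protein (BMP) signalling and its immediate target family, chosen by name: Id1, Id2, Id3 and Id4, the ligand genes Bmp4 and Bmp7, the receptor genes Bmpr1a and Bmpr2, and the inhibitory genes Smad6 and Smad7. All 10 were found among the 41795 features counted, and all 10 passed the filter on low counts that left 15223 genes for testing. The counts came from mouse mammary tumour cells called cancer stem cells (CSCs), with 3 libraries of activated CSCs and 3 libraries of quiescent CSCs. Both groups came from FVB/N-Tg(MMTV-PyVT)634Mul/J mice, in which the mammary-active MMTV promoter drives the polyoma middle T oncogene, so the transgene is shared by both groups. The labels give no age and do not say how the cells were isolated or activated, and they do not say if replicates are separate animals or cultures. The p-values therefore measure only the spread between these libraries, which may be technical.

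BMP ligands are secreted as dimers and bind a complex of type I receptors, such as the product of Bmpr1a, and type II receptors, such as the product of Bmpr2. The type II receptor activates the type I receptor, which phosphorylates the transducers SMAD1, SMAD5 and SMAD9, and these enter the nucleus with SMAD4 and switch on targets that include the Id genes and the feedback inhibitors Smad6 and Smad7. ID proteins carry a helix-loop-helix domain without the basic region that contacts DNA. They bind the broadly expressed E proteins and keep them off DNA, which in many tissues, the mammary gland among them, goes with delayed differentiation.

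Libraries held 17842568 to 20510377 counts in activated CSCs and 17785331 to 19145576 counts in quiescent CSCs. Levels are CPM, the counts of a gene scaled to the same total in every library, and levels compared between genes are CPM per kilobase (kb) of gene model. Epithelial markers were abundant in both states. Their summed level over 8 genes was 7036 to 7253 CPM in activated and 7448 to 7735 CPM in quiescent libraries. Of these genes 3 rose, 2 fell and 3 did not pass the test described below. By that test 24.1% of all genes tested rose and 23.4% fell, and each count of markers here is to be read beside these shares. Fibroblast markers were also present and were higher in activated libraries, where 9 of 10 rose and 1 did not pass. Their summed level was 1472 to 1622 CPM in activated libraries and 829.6 to 855.7 CPM in quiescent libraries. Myeloid and macrophage markers numbered 10, of which 5 rose and 1 fell, with sums of 421.5 to 427.2 CPM in activated and 333.7 to 371.9 CPM in quiescent libraries. Of 7 pericyte and smooth muscle markers 3 rose and 2 fell, with sums of 176.3 to 197.1 CPM in activated and 151.2 to 153.9 CPM in quiescent libraries. Endothelial markers summed to 4.59 to 6.30 CPM in activated and 4.65 to 6.36 CPM in quiescent libraries, with Cldn5 at 0 counts in all 6. T cell markers stayed at or under 0.506 CPM in sum, with Cd3g and Cd2 at 0 counts throughout. B cell markers stayed at or under 0.394 CPM in sum. Adipocyte markers summed to 2.52 to 3.52 CPM in activated and 3.05 to 3.90 CPM in quiescent libraries. All 6 markers of cycling cells rose, with sums of 819.0 to 862.0 CPM in activated and 174.0 to 181.8 CPM in quiescent libraries.

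The study set the transcriptomes of the 2 cell states against each other. Of the 10 genes 4 rose in activated CSCs (Id1, Id2, Bmpr2 and Smad6), 2 fell (Id4 and Bmp4) and 4 did not pass the test (Id3, Bmp7, Bmpr1a and Smad7). A gene was called at an adjusted p under 0.05 in edgeR's quasi-likelihood test, adjusted over all genes tested. By the same test 47.5% of all genes tested were called, 24.1% of them higher and 23.4% lower as shares of all genes, so 6 of 10 stands near the background. The median log2 fold change, activated over quiescent, was 0.05 over the 10 genes and -0.0032 over all genes tested. CPM of the states did not overlap in 7 of the 10 genes, against 55.9% of all genes tested. The levels ranged over more than 2 orders of magnitude, as the plot of CPM in each library shows.

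**Figure D1:**
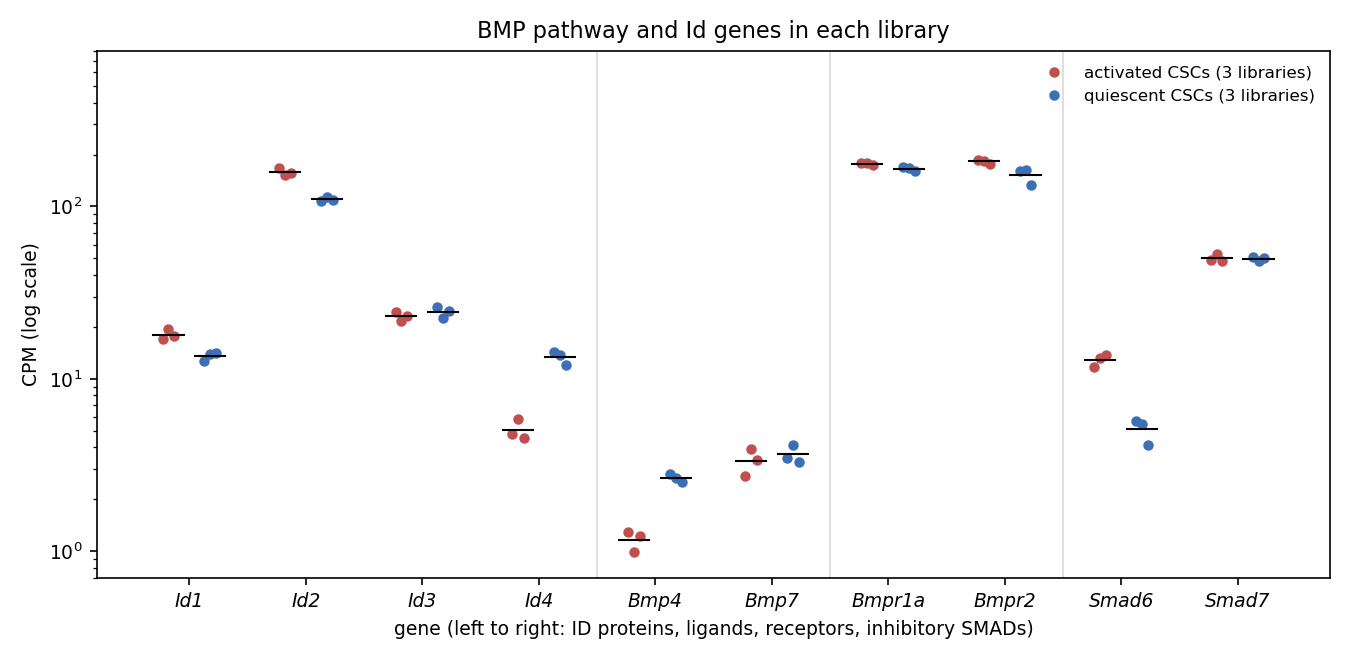
CPM of the 10 genes on a log axis, with a point for each library, activated CSCs left of quiescent CSCs and a bar at the mean of 3 libraries. Smad6 lies higher and Id4 and Bmp4 lie lower in activated CSCs, without overlap, while Id3, Bmp7 and Smad7 overlap between the states.

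Promoter sequences were available for 7 of the 10 genes, from RefSeq's annotation of GRCm38.p6, the build whose chromosome accessions the deposited file uses. The 250 bases before the annotated start are printed for Id2, which rose, Id4, which fell, Id3, which did not pass the test, and for Smad6, the gene that rose most among the 10. Capitals mark 3 short motifs known to be bound by SMAD proteins, searched on both strands: GGCGCC and GGAGCC, GC-rich sites of SMAD1 and SMAD5, and CAGAC, the SMAD box. The motif spellings do not contain each other, and no further site was searched.
Id2, chr12:25096093-25096342, minus strand: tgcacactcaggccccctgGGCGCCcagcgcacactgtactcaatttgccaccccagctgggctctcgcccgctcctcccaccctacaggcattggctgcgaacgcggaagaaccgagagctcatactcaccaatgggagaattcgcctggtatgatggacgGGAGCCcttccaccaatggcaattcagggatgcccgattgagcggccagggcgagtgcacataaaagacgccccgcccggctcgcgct
Id3, chr4:136143572-136143821, plus strand: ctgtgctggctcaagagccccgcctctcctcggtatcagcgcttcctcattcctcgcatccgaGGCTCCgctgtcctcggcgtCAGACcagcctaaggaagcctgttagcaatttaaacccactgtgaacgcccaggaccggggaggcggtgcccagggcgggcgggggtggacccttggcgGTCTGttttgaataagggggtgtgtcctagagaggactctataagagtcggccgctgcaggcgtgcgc
Id4, chr13:48260866-48261115, plus strand: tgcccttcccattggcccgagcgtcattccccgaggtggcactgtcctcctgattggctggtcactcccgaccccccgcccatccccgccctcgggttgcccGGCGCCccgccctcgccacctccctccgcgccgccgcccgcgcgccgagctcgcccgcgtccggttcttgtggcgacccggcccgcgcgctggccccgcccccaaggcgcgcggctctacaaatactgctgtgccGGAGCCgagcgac
Smad6, chr9:64022060-64022309, minus strand: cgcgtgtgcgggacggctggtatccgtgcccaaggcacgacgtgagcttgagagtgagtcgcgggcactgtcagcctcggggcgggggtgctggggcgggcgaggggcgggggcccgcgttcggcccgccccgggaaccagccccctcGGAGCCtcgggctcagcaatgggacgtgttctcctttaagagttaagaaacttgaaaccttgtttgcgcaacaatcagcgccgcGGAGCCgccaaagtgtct
The Id2 window held 1 GGCGCC and 1 GGAGCC, and the Id4 window also held 1 of each. The Id3 window held 1 GGAGCC and 2 CAGAC, and the Smad6 window held 2 GGAGCC. Over all 32851 windows of this length, 9.59% held GGCGCC, 26.0% held GGAGCC and 42.2% held CAGAC. GC content was 62.8% in the Id2 and Id3 windows, 75.6% in the Id4 window and 66.8% in the Smad6 window. A match is only a match of letters, and any part of these motifs in the changes was not tested. The RefSeq start used for Id4 lies 311 bases from the gene start in the deposited file, and that for Smad6 28 bases from it, while those of Id2 and Id3 are the same.

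Id2, on chromosome 12 (25093799 to 25096092, minus strand), was the most abundant Id gene. It had 168.1, 152.1 and 156.9 CPM in activated CSCs, against 108.0, 113.5 and 108.9 CPM in quiescent CSCs. Every activated library was above every quiescent one. Its level rose to 159.0 ± 8.21 CPM in activated CSCs, against 110.1 ± 2.96 CPM in quiescent CSCs (SD, n = 3 libraries each). The log2 fold change was 0.53 (SE 0.04, adjusted p = 3.5e-08), or 1.44-fold. In bulk RNA a change in the number of cells of a type and a change in RNA per cell cannot be told apart, here and in all results that follow.

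Id1, on chromosome 2 (152736234 to 152737410, plus strand), is a much-used readout of BMP receptor activity. It had 16.9, 19.3 and 17.8 CPM in activated CSCs, against 12.7, 13.9 and 14.1 CPM in quiescent CSCs. The states did not overlap. The rise was 1.33-fold (log2 0.41, SE 0.09, adjusted p = 0.0012).

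Id3, on chromosome 4 (136143822 to 136145392, plus strand), is often induced together with Id1. It had 24.3, 21.7 and 23.3 CPM in activated CSCs, against 26.0, 22.6 and 24.8 CPM in quiescent CSCs. The states overlapped, and the log2 fold change of -0.08 (SE 0.08, adjusted p = 0.42) had a 95% interval of -0.25 to 0.09, or folds of 0.841 to 1.06, which leaves out a rise of the size measured for Id1. The ratio of Id1 to Id3, both per kb, was 0.694, 0.886 and 0.762 in activated libraries, against 0.486, 0.613 and 0.567 in quiescent libraries. All activated ratios lay above all quiescent ones, with p = 0.1 in an exact two-sided permutation test over libraries, the smallest p that 3 against 3 allows. The ratio restates the results of the 2 genes and is no separate support for them.

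Id4, on chromosome 13 (48261427 to 48264036, plus strand), encodes a family member that marks basal and stem-like cells of the mammary gland and can counter the other ID proteins. It had 4.76, 5.86 and 4.54 CPM in activated CSCs, against 14.2, 13.7 and 12.0 CPM in quiescent CSCs. The highest activated library was below the lowest quiescent one by a wide margin. The log2 fold change was -1.40 (SE 0.13, adjusted p = 8.4e-08), a level 2.64-fold lower in activated CSCs. Its deposited counts were 85, 107 and 93 in activated libraries and 253, 253 and 229 in quiescent libraries. An antisense long noncoding RNA, A330033J07Rik, overlaps Id4 and had at most 6 counts in a library. Whether reads were counted by strand is not stated.

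The 4 Id genes summed to 171.1 ± 6.30 CPM per kb in activated CSCs and 134.4 ± 1.18 CPM per kb in quiescent CSCs (SD, n = 3 libraries each), a ratio of 1.27. The exact two-sided permutation test over libraries gave p = 0.1, the smallest it can give. Id2 made up 74.2, 72 and 73% of this sum in activated libraries, against 63.4, 65.7 and 64.1% in quiescent libraries. Id4 made up 1.61, 2.12 and 1.62% in activated libraries, against 6.40, 6.07 and 5.43% in quiescent libraries. The share of Id3 was 14.2 ± 0.374% in activated and 19.1 ± 1.47% in quiescent libraries, and that of Id1 was 11.03 ± 1.12% and 10.5 ± 0.596%. The shares of Id2, Id3 and Id4 did not overlap between the states (each p = 0.1, exact two-sided permutation test), while those of Id1 did (p = 0.5, same test). Shares of a sum depend on each other, so a larger Id2 share lowers the others, and the level of Id3 itself overlapped between the states. The sum was higher in every activated library, with a larger share of Id2 and a smaller share of Id4. Mean Id2 was 125.0 CPM per kb in activated and 86.6 in quiescent libraries. For Id1 these means were 18.8 and 14.2, for Id3 24.2 and 25.7, and for Id4 3.04 and 8.02. The higher sum thus follows Id2 and does not show a rise shared by all 4 Id genes. Per kb, Id2 stood at 41.7 ± 6.78 times Id4 in activated and at 10.9 ± 0.950 times in quiescent libraries.

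**Figure D2:**
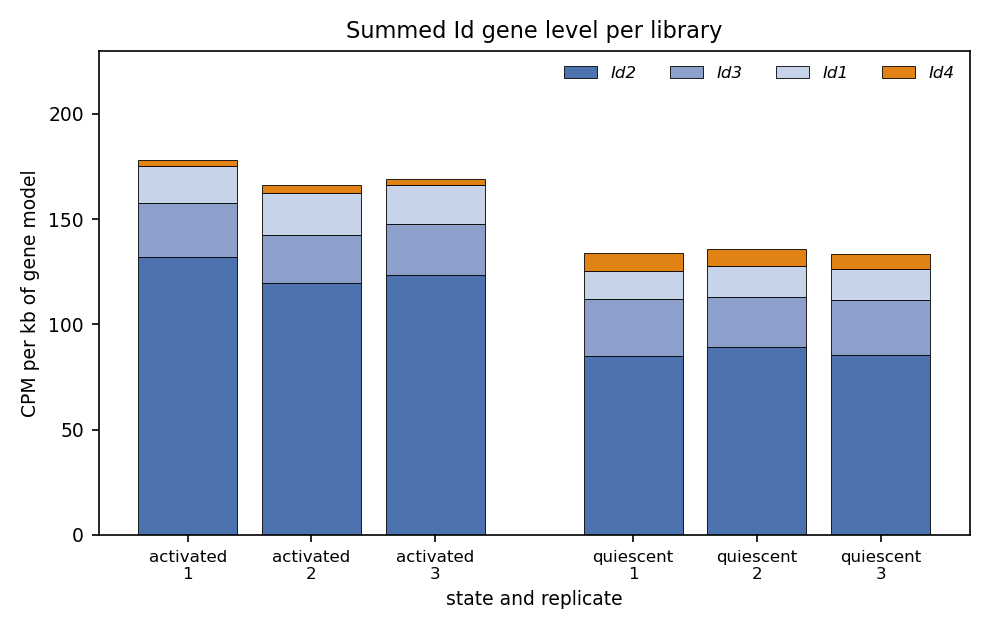
Stacked bars of the 4 Id genes in CPM per kb of gene model for each library, activated CSCs left of quiescent CSCs. The sums run from 166.1 to 178.2 in activated libraries and from 133.5 to 135.8 in quiescent libraries, and the orange Id4 segment is thinner in every activated library.

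Of the ligand genes, Bmp4 fell and Bmp7 did not pass. Bmp4, on chromosome 14 (46383525 to 46390669, minus strand), encodes a ligand with roles in embryonic and mammary development. It had 1.29, 0.986 and 1.22 CPM in activated CSCs, against 2.81, 2.65 and 2.52 CPM in quiescent CSCs. The states did not overlap, and the log2 fold change was -1.19 (SE 0.22, adjusted p = 3.0e-04). These levels rest on 23, 18 and 25 counts in activated libraries and 50, 49 and 48 counts in quiescent libraries. Bmp4 was lower in the libraries in which the summed fibroblast markers were higher, and their part in this result was not tested.

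Bmp7, on chromosome 2 (172868012 to 172940321, minus strand), encodes a ligand that can pair with BMP4. It had 2.74, 3.89 and 3.37 CPM in activated CSCs, against 3.49, 4.11 and 3.31 CPM in quiescent CSCs. The states overlapped (log2 -0.12, SE 0.18, adjusted p = 0.61), and the 95% interval from -0.51 to 0.26 covers folds from 0.701 to 1.20. Per kb, Bmp7 stood at 1.33, 2.46 and 1.72 times Bmp4 in activated libraries and at 0.773, 0.967 and 0.818 times Bmp4 in quiescent libraries. These ratios did not overlap (p = 0.1, exact two-sided permutation test over libraries, the smallest possible). They restate the results of Bmp4 and Bmp7 and are no separate support for them. Both ligand genes together held 1.42 ± 0.0948 CPM per kb in activated CSCs and 2.15 ± 0.139 CPM per kb in quiescent CSCs (SD, n = 3 libraries each).

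The receptor genes were far more abundant than the ligand genes and changed little. Bmpr2, on chromosome 1 (59764270 to 59878081, plus strand), encodes the main type II receptor for BMPs. It had 186.4, 184.3 and 177.1 CPM in activated CSCs, against 160.8, 162.6 and 134.0 CPM in quiescent CSCs. The states did not overlap, and quiescent replicate 3 was the lowest library. The rise was 1.20-fold (log2 0.26, SE 0.07, adjusted p = 0.011). Without activated replicate 1 the call ended (log2 0.25, adjusted p = 0.14).

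Bmpr1a, on chromosome 14 (34411068 to 34503461, minus strand), encodes a widely expressed type I receptor. It had 178.1, 177.6 and 173.0 CPM in activated CSCs, against 168.9, 166.6 and 160.8 CPM in quiescent CSCs. All activated libraries lay above all quiescent ones, but the difference of 1.07-fold did not pass (log2 0.09, SE 0.04, adjusted p = 0.059). With upper quartile scaling it did pass (log2 0.11, adjusted p = 0.029). The 95% interval of the log2 fold change, 0.01 to 0.17, allows at most a 1.13-fold difference.

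The inhibitory SMAD genes parted. Smad6, on chromosome 9 (63953076 to 64022087, minus strand), encodes an inhibitor that acts mainly on BMP receptors. It had 11.7, 13.2 and 13.8 CPM in activated CSCs, against 5.68, 5.47 and 4.15 CPM in quiescent CSCs. The lowest activated library was above the highest quiescent one, so the states did not overlap. Its level rose 2.53-fold (log2 1.34, SE 0.13, adjusted p = 2.5e-07), with a 95% interval from 2.09-fold to 3.07-fold.

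Smad7, on chromosome 18 (75367365 to 75395935, plus strand), encodes an inhibitor of both TGF-beta and BMP receptors. It had 49.0, 53.2 and 48.5 CPM in activated CSCs, against 51.1, 47.9 and 50.4 CPM in quiescent CSCs. The states overlapped (log2 0.01, SE 0.06, adjusted p = 0.89), and the 95% interval covers folds from 0.929 to 1.09. Per kb, Smad7 stood at 2.83, 2.72 and 2.37 times Smad6 in activated libraries, against 6.07, 5.92 and 8.20 times in quiescent libraries. The ratios of the states lay well apart (p = 0.1, exact two-sided permutation test over libraries, the smallest possible). This ratio restates the results of Smad6 and Smad7 and is no separate support for them.

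**Figure D3:**
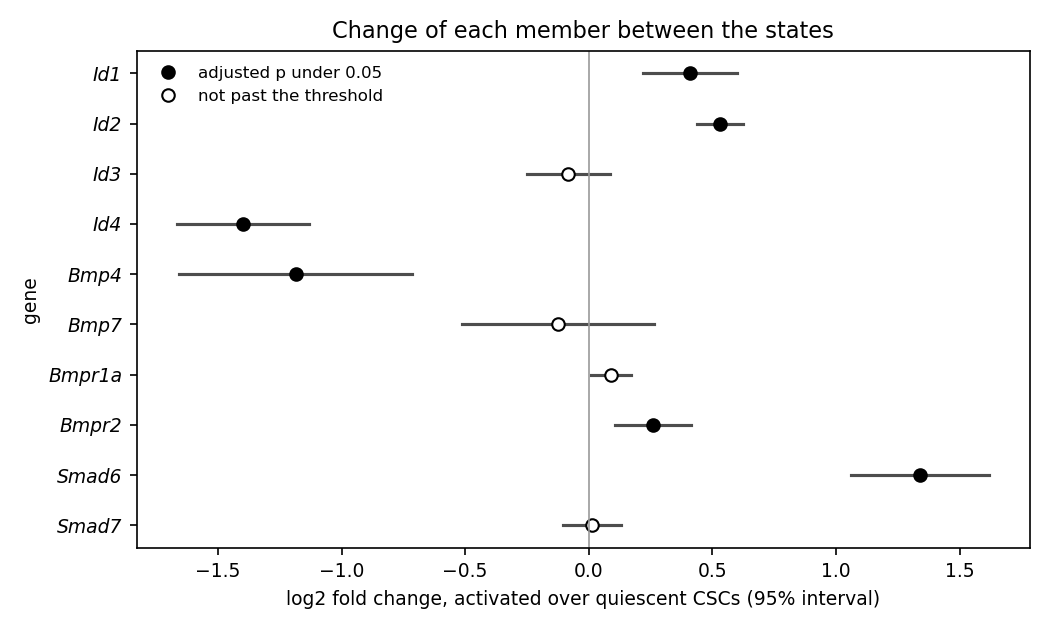
Log2 fold change of each gene, activated over quiescent CSCs, with its 95% interval from the edgeR fit on 3 libraries a state. Filled points passed an adjusted p of 0.05: Smad6 at 1.34 and Id2 at 0.53 lie on the right, and Id4 at -1.40 and Bmp4 at -1.19 on the left.

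Ranked by CPM per kb, Id2 led in both states, with 125.0 ± 6.46 in activated and 86.6 ± 2.33 in quiescent CSCs (SD, n = 3 libraries each). In activated CSCs it was followed by Bmpr1a, Id3, Id1, Bmpr2, Smad7, Smad6, Id4, Bmp7 and Bmp4, and no neighbours in that order overlapped. In quiescent CSCs the order was Id2, Bmpr1a, Id3, Id1, Bmpr2, Smad7, Id4, Smad6, Bmp4 and Bmp7. There the ranges of Bmpr1a and Id3, of Id1 and Bmpr2, and of Bmp4 and Bmp7 overlapped. Smad6 and Id4 stood in opposite orders in the 2 states. Smad6 was at 4.30 ± 0.363 and Id4 at 3.04 ± 0.426 CPM per kb in activated CSCs, while Smad6 was at 1.70 ± 0.276 and Id4 at 8.02 ± 0.690 CPM per kb in quiescent CSCs.

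The wider pathway was described with 71 other genes in 8 role lists, of which 55 were tested. Among them 21 rose, 14 fell and 20 missed the threshold. Their median log2 fold change was 0.05, which did not move when a gene with 0 counts in a state was set to its bound. The share called is to be read beside the 47.5% of all genes. Of the 6 genes listed as ligand processing enzymes 5 rose, to be read beside the 24.1% of all genes tested that rose. The list is not confined to enzymes that cleave BMP ligands. No test of the list as a whole was made. The other lists held members that went both ways or mostly did not pass.

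**Figure D4:**
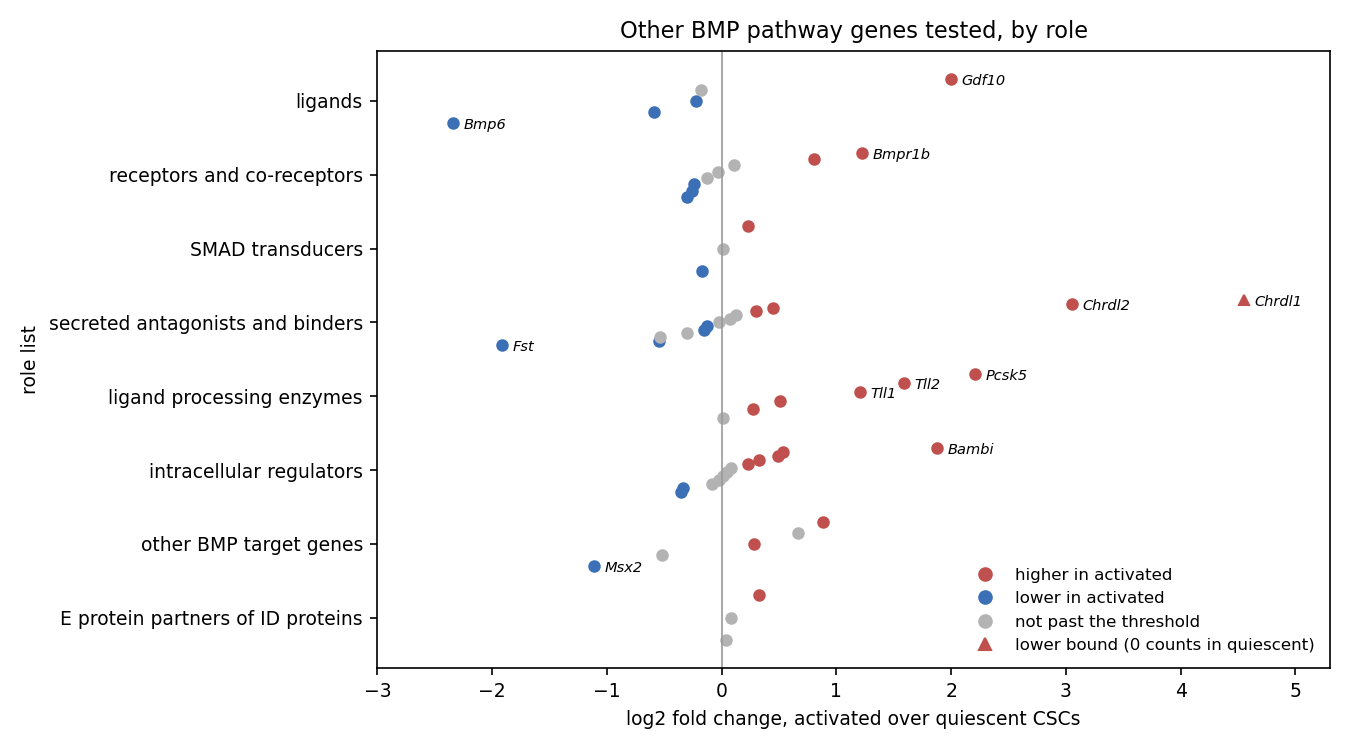
Log2 fold change, activated over quiescent CSCs, of the 55 other pathway genes tested, a point for each gene grouped by role, with names at a change of at least 1. The triangle for Chrdl1 is a lower bound, since it had 0 counts in quiescent libraries. Pcsk5 and both tolloid-like genes lie right of 0 among the processing enzymes, and Fst and Bmp6 lie furthest left.

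Among 13 further ligands 5 were tested, 1 rose and 3 fell. Gdf5, which encodes a BMP family ligand of joint and skeletal tissue, fell to 25.3 ± 1.75 CPM in activated CSCs, against 38.2 ± 2.11 CPM in quiescent CSCs (log2 -0.59, SE 0.07, adjusted p = 2.7e-06). Bmp6 fell to 0.312 ± 0.113 CPM in activated CSCs, against 1.63 ± 0.403 CPM in quiescent CSCs (log2 -2.34, SE 0.36, adjusted p = 4.9e-05), on 4, 5 and 9 counts in activated libraries and 37, 24 and 29 counts in quiescent libraries. Only the quiescent libraries, where Bmp6 was higher, carried it past the filter on low counts. Bmp2, the closest relative of Bmp4, was at 18.2 ± 0.667 CPM in activated and 21.2 ± 1.97 CPM in quiescent CSCs (log2 -0.22, adjusted p = 0.043). Bmp2 was named after its values were seen, and 7 of 15 alternatives ended its call, with adjusted p over the 15 from 0.023 to 0.20. Gdf10, also named afterwards, was the ligand that rose, at 0.744 ± 0.0703 CPM in activated and 0.183 ± 0.118 CPM in quiescent CSCs (adjusted p = 0.0044). It had 13, 15 and 14 counts in activated libraries against 5, 4 and 1 in quiescent libraries, and so passed the filter on low counts through the activated libraries. It was not tested with a minimum of 1 CPM in 3 libraries.

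Of 9 further receptors and co-receptors 8 were tested, 2 rose and 3 fell. The 2 that rose were Acvrl1 and Bmpr1b. Bmpr1b, named after its values were seen, had 38, 31 and 19 counts in activated libraries against 13, 8 and 16 in quiescent libraries. It passed the filter on low counts through the activated libraries (log2 1.22, SE 0.36, adjusted p = 0.0093 in the edgeR test). Acvrl1, a type I receptor best known from endothelium, rose to 23.7 ± 1.78 CPM in activated CSCs, against 13.6 ± 1.20 CPM in quiescent CSCs (log2 0.80, SE 0.09, adjusted p = 1.5e-06). The summed endothelial markers given above overlapped between the states, and the part of endothelial cells in this result was not tested. Acvr2a, a type II receptor shared with activins, fell to 31.3 ± 0.661 CPM in activated CSCs, against 38.5 ± 0.836 CPM in quiescent CSCs (log2 -0.30, SE 0.06, adjusted p = 4.1e-04).

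The transducer genes moved little. Smad5 rose to 110.8 ± 2.70 CPM in activated CSCs, against 94.3 ± 0.9997 CPM in quiescent CSCs (log2 0.23, SE 0.04, adjusted p = 2.5e-04). Smad1 fell slightly to 56.3 ± 4.43 CPM in activated CSCs, against 63.5 ± 2.32 CPM in quiescent CSCs (log2 -0.17, SE 0.06, adjusted p = 0.026). The Smad1 call ended without activated replicate 1 (adjusted p = 0.095), activated replicate 2 (0.080), quiescent replicate 2 (0.11) or quiescent replicate 3 (0.065). Smad4, the partner common to BMP and TGF-beta signalling, was at 124.4 ± 2.61 CPM in activated and 123.3 ± 1.995 CPM in quiescent CSCs (adjusted p = 0.81). Smad9 had 1 or 2 counts in every library and was not tested.

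Of 16 secreted antagonists and binders 13 were tested, 4 rose and 4 fell. Fst encodes follistatin, which binds activins and several BMPs and keeps them from their receptors. It fell to 8.06 ± 1.28 CPM in activated CSCs, against 30.4 ± 0.711 CPM in quiescent CSCs (log2 -1.91, SE 0.10, adjusted p = 1.1e-10). Chrdl1 and Chrdl2 encode chordin-like proteins that bind BMP ligands. Chrdl1 had 24, 25 and 23 counts in activated libraries and 0 in each quiescent library (adjusted p = 2.1e-06). It thus passed the filter on low counts through the activated libraries alone. It was at least 23.4-fold higher in activated CSCs, taking 3 counts over the 3 quiescent libraries as the limit that 0 counts allow for counting error. Chrdl2, named after its values were seen, had 343, 303 and 383 counts in activated libraries against 57, 35 and 28 in quiescent libraries. Its level was 18.2 ± 1.39 CPM in activated and 2.19 ± 0.904 CPM in quiescent CSCs (log2 3.06, SE 0.24, adjusted p = 1.2e-05). Thus the genes of follistatin and of the chordin-like proteins went in opposite directions. The summed fibroblast markers given above were also higher in the activated libraries, and their part in the antagonist results was not tested.

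The list of ligand processing enzymes held 6 genes, of which 5 rose and 1, Pcsk6, missed the threshold. It includes Bmp1 and the tolloid-like genes Tll1 and Tll2, so it is not confined to enzymes that cleave BMP ligands. Of all genes tested 24.1% rose. Tll1 and Tll2, both among the 5, were named after their values were seen. Tll1 had 31, 22 and 35 counts in activated libraries against 13, 14 and 10 in quiescent libraries. Tll2 had 25, 16 and 37 counts in activated libraries against 8, 8 and 9 in quiescent libraries. Both passed the filter on low counts through the activated libraries. The median log2 change of the 6 genes, Tll1 and Tll2 included, was 0.86. Pcsk5, a proprotein convertase, rose to 29.4 ± 2.06 CPM in activated CSCs, against 6.35 ± 0.410 CPM in quiescent CSCs (log2 2.21, SE 0.09, adjusted p = 4.1e-12). Bmp1, which is no BMP but a metalloprotease that cleaves the antagonist chordin and procollagens, rose to 303.6 ± 23.1 CPM in activated CSCs, against 213.3 ± 9.10 CPM in quiescent CSCs (log2 0.51, SE 0.05, adjusted p = 3.2e-06). Collagen genes of the fibroblast list rose in the same libraries, and their part here was not tested.

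All 12 intracellular regulators were tested, and 5 rose, 2 fell and 5 did not pass. Ski, a corepressor that binds SMAD complexes, rose to 230.2 ± 2.05 CPM in activated CSCs, against 158.7 ± 8.02 CPM in quiescent CSCs (log2 0.54, SE 0.04, adjusted p = 1.1e-08). Ctdsp2, a phosphatase that acts on SMADs among other substrates, rose 1.40-fold (adjusted p = 8.0e-08). Bambi, named after its values were seen, encodes a receptor-like protein without a kinase domain that blocks signalling and is itself a BMP target. It was at 8.34 ± 0.592 CPM in activated and 2.27 ± 0.518 CPM in quiescent CSCs (log2 1.88, SE 0.17, adjusted p = 9.4e-08), on 159, 141 and 172 counts in activated libraries and 51, 36 and 38 counts in quiescent libraries. The members that fell, also named afterwards, were Smurf1, a ubiquitin ligase that targets SMAD1 and SMAD5 (log2 -0.36, SE 0.04, adjusted p = 3.9e-07), and Ppm1a, a phosphatase that acts on SMADs (log2 -0.33, SE 0.05, adjusted p = 4.8e-05).

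Of 8 other BMP target genes 5 were tested, 2 rose and 1 fell. The homeobox genes Dlx5 and Msx2 went in opposite directions. Dlx5 rose to 10.7 ± 0.815 CPM in activated CSCs, against 5.80 ± 0.608 CPM in quiescent CSCs (log2 0.88, SE 0.12, adjusted p = 1.4e-05). Msx2 fell to 1.33 ± 0.409 CPM in activated CSCs, against 2.90 ± 0.443 CPM in quiescent CSCs (log2 -1.11, SE 0.25, adjusted p = 0.0013).

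The E proteins that ID proteins bind come from 3 genes, of which 1 rose and 2 did not pass. Tcf3, which encodes the E2A proteins, rose to 132.9 ± 8.22 CPM in activated CSCs, against 106.4 ± 4.31 CPM in quiescent CSCs (log2 0.32, SE 0.05, adjusted p = 4.2e-05). Tcf4 was at 57.5 ± 1.29 CPM in activated and 56.0 ± 5.70 CPM in quiescent CSCs (adjusted p = 0.66), and Tcf12 at 179.1 ± 2.65 CPM in activated and 169.0 ± 6.19 CPM in quiescent CSCs (adjusted p = 0.090). Tcf12 passed with upper quartile scaling (adjusted p = 0.048) and without activated replicate 1 (0.033).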

How the data were processed

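RNA was taken from mouse mammary tumour CSCs, 3 activated and 3 quiescent libraries, with Trizol and a NEBNext Ultra kit, per the labels' protocols. The authors deposited raw counts for each gene, whole numbers that sum to a different total in each library, beside a gene length. The submitters' processing notes name HISAT2 (2.0.5), StringTie (1.3.3b) and also featureCounts (1.5.0-p3), without roles. Unnamed loci, 187 features with 0.144 to 0.239% of the counts, were kept in the fit.

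The test was edgeR 4.0.16 (R 4.3.3) with quasi-likelihood fits, robust estimation, TMM scaling, filterByExpr and Benjamini-Hochberg adjustment over 15223 genes, at a threshold of 0.05. The fit was tested on simulated data. Alternatives used DESeq2 1.42.0, limma 3.58.1, other scalings and filters, a replicate block and each library left out. Groups came from the labelled cell state. The members and lists were chosen with earlier results of these data known. Named genes were the 10 members and, of each other list, up to 2 genes with the smallest adjusted p, or all genes of lists of 4 or fewer. Pairs of libraries within a state had chi-square values of 4.01 to 7.99 per degree of freedom, so no pair differed by counting error alone. This does not tell if replicates are separate animals or cultures. All 6 libraries were used. Limits from 0 counts cover counting error only.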

Additional observations from a re-analysis of the deposited data

How the results depend on the processing

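Each of the 10 genes was refitted under 15 alternatives, and 8 of them stayed on their side of the threshold in all 15. Bmp7 and Smad7, which were not called, changed sign in 1 and 2 of the alternatives. The exceptions were Bmpr1a, which passed with upper quartile scaling (log2 0.11), and Bmpr2, which did not pass without activated replicate 1. Leaving out each library gave Bmpr2 log2 fold changes from 0.17 to 0.31, and the cause was not tested. Id4 stayed between -1.51 and -1.32, Bmp4 between -1.25 and -1.08, Smad6 between 1.21 and 1.42, Id2 between 0.49 and 0.56 and Id1 between 0.36 and 0.46. A log2 threshold of 1, which is stricter by construction, left 3 of the 10 genes (1 higher), 11 of the other pathway genes (8 higher, 3 lower) and 1420 of all genes (904 higher, 516 lower). Leaving out each library gave 5 or 6 of the 10 genes, 30 to 35 of the other pathway genes and 6387 to 7359 of all genes.

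No pairing of the libraries by replicate number is stated. Deviations from the state means correlated at 0.0279, -0.039 and 0.047 for equal numbers, and at -0.0648 to 0.0373 for unequal numbers. With 3 libraries a state these values cannot decide if the libraries were paired. With the replicate number as a block 6 of the 10 genes, 34 of the other pathway genes and 7042 of all genes were called. Depth limits Bmp4, Bmp7 and the ligands and antagonists with fewest counts.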

Other observations

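Of the 71 other pathway genes 16 were too low to test. Among them Bmp5, a ligand gene, had 15, 12 and 8 counts in activated libraries against 3 in each quiescent library. Gdf6, another ligand gene, had 8, 11 and 7 counts in activated libraries against 1, 0 and 4 in quiescent libraries. Nog, which encodes the antagonist noggin, had 1, 1 and 0 counts in activated libraries against 7, 5 and 3 in quiescent libraries. Sostdc1, an antagonist gene, had 4, 6 and 6 counts in activated libraries against 2, 1 and 1 in quiescent libraries. Sost, the sclerostin gene, had 0 counts in all 6 libraries, and Hamp, the hepcidin gene and a BMP target in liver, had 1, 0 and 2 counts in activated libraries against 0 in each quiescent library. These genes were chosen for mention after their counts were seen, and no test was made.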
